A study of Camellia sinensis with 3 samples.

Results

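csn-smR7277 is a small RNA of the tea plant (*Camellia sinensis*) that the study listed among its predicted miRNAs, apart from the conserved families. All entries listed under this name in the table of degradome targets of predicted miRNAs were taken, which gave 7 target sites of the 763 listed for 53 miRNAs in all. Each site lay on a different expressed sequence tag (EST), a partial transcript sequence. The miRNA was selected on its reads, which were known to be fewer in the cold library, so the difference between the libraries is given here as a description, without a test.

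The cold degradome library (+C) was made from young leaves kept at 4 °C, and the control degradome library (-C) from leaves kept at 28 °C. Both drew on plants of the cold-tolerant cultivar 'Yingshuang' and the cold-sensitive cultivar 'Baiye 1' that had been grown for 20 days and were harvested at 6 times between 1 h and 48 h. The labels name both cultivars for each library, so neither a cultivar nor a harvest time can be told apart, and each group held 1 library. The listed sites summed to 1161 reads in the cold library and 2949 reads in the control library, and by the sequenced signatures the control library was 1.37 times as deep as the cold one.

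Plant miRNAs guide an ARGONAUTE protein to transcripts that pair with them over most of their length, and the protein then cuts the transcript opposite the middle of the small RNA. The downstream piece keeps a free 5′ phosphate, which degradome sequencing captures, so that reads pile up at the cut. The number of such reads depends on how often the transcript is cut, on how much of the transcript there is and on how fast the pieces decay, and degradome reads alone do not separate these quantities.

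Reads of csn-smR7277 were concentrated on 3 of its 7 targets, gi212377786, gi212378280 and gi393393386. Each had 5 reads in the cold library and 39 reads in the control library. The exact Poisson intervals (95%) were 1.62 to 11.7 reads in the cold library and 27.7 to 53.3 reads in the control library, and they cover counting error only and no spread between libraries. The other 4 targets had at most 3 reads in either library. The 3 leading targets held 15 of 19 csn-smR7277 reads in the cold library (78.9%) and 117 of 120 in the control library (97.5%).

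**Figure D1:**
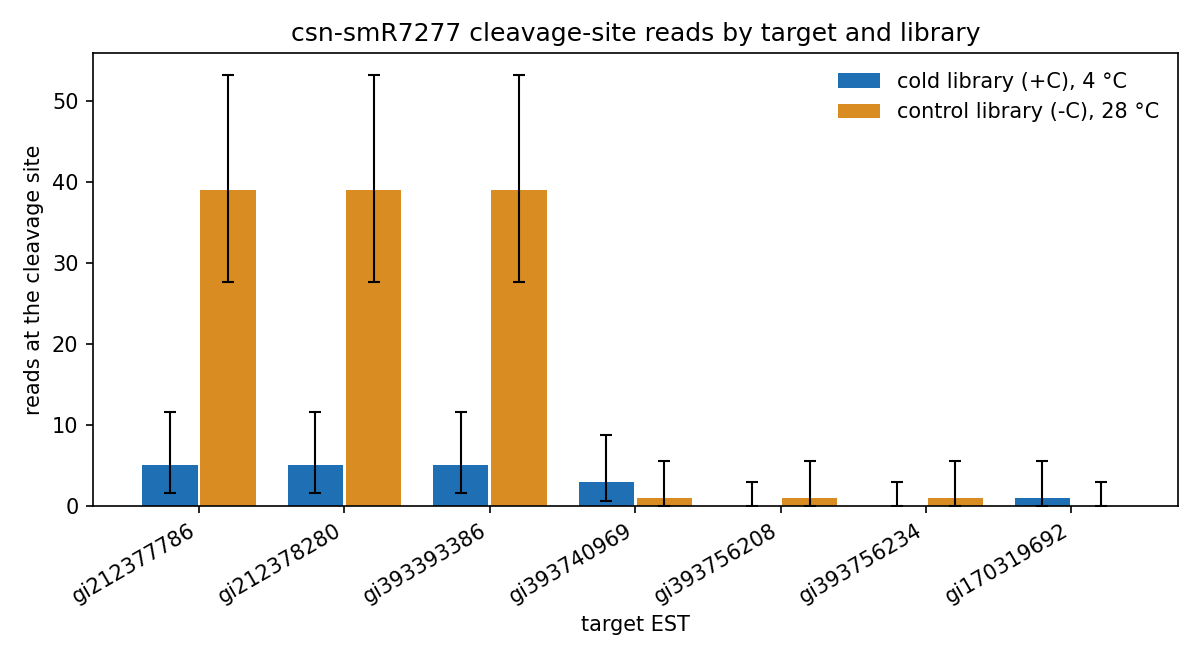
Reads at the cleavage site (linear axis) of each of the 7 csn-smR7277 targets in the cold library (left bar) and the control library (right bar), with exact 95% Poisson intervals of counting error and, where no read was listed, an upper limit of 3 reads. The 3 targets at the left have 5 reads in the cold library and 39 in the control library, and the other 4 have 0 to 3 reads.

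On the transcript gi212377786, annotated as an unknown protein, the pairing covered nucleotides 159 to 182 and the cut lay at nucleotide 173. Its reads corresponded to 0.742 reads per 1000000 signatures in the cold library and 4.23 reads per 1000000 in the control library. The cold to control ratio was 0.176, or 5.70-fold lower in the cold library, with an exact conditional interval of 0.0540 to 0.446 for counting error. The site was in category 2 in both libraries. This CleaveLand category holds sites whose reads exceed the median of the transcript but stay below its maximum, so another position of the same EST held more reads than the predicted cut in each library.

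gi212378280, also an unknown protein, was paired at nucleotides 308 to 331 and cut at nucleotide 322. It was in category 3 in the cold library and in category 2 in the control library. Category 3 means that the 5 cold reads did not exceed the median of that transcript. gi393393386, annotated as a transposable element gene, was paired at nucleotides 52 to 75 and cut at nucleotide 66, and was in category 2 in both libraries. Transposable elements are mobile DNA whose transcripts are frequent sources and targets of small RNAs in plants. The 3 leading targets thus had the same reads, the same span (24 nt) and the same alignment score (3.5, described below). They lay at different positions of their ESTs, carried 2 annotations and differed in their cold category. These differences do not show that their reads are separate.

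The 2 targets annotated as a pseudogene of a putative ADP-ribosylation factor did not have fewer listed reads in the cold library. ADP-ribosylation factors are small GTP-binding proteins that recruit vesicle coats to membranes. gi393740969, paired at 413 to 436 and cut at 427, had 3 reads in the cold library and 1 read in the control library, in categories 2 and 4. Category 4 is the class of a single read. Its ratio was 4.11 with an interval of 0.330 to 215.7, so no direction could be given at this depth. gi170319692, paired at 784 to 807 and cut at 798, had 1 read in the cold library (category 4) and no listed read in the control library, where a count of 0 allows up to 3 reads. No other site among the 763 was annotated as an ADP-ribosylation factor.

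The last 2 targets, gi393756208 and gi393756234, were unknown proteins with no listed read in the cold library and 1 read each in the control library (category 4). The first was paired at 638 to 661 and cut at 652, the second was paired at 272 to 296 and cut at 287. Since the cold library had no listed read at these sites, no fold was computed. In all, 4 targets were listed in both libraries, 1 in the cold library alone and 2 in the control library alone. A target with no listed read in a library is not shown to be uncut there.

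None of the 7 targets reached category 0 or 1, the classes in which the cut holds the transcript maximum. In the cold library 3 were in category 2, 1 in category 3 and 1 in category 4. In the control library 3 were in category 2 and 3 in category 4. Over all 455 sites listed in the cold library, category 0 made up 3.30%, category 1 0%, category 2 33.0%, category 3 3.08% and category 4 60.7%. The study's own counts for the cold library differ, with more targets in category 1 and fewer in category 4. The values here follow the move of shifted columns described below. Over all 591 sites listed in the control library, category 0 made up 3.55%, category 1 1.02%, category 2 32.0%, category 3 14.4% and category 4 49.1%. Among the 24 sites of any miRNA with 20 or more reads in at least 1 library, 17 were in category 0 in the control library and 6 in category 2, of which 3 were the leading csn-smR7277 targets.

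The pairing was uniform among the 7 targets. It spanned 24 nt at 6 of them and 25 nt at gi393756234. Counted from the 3′ end of the paired stretch on the target, which faces the 5′ end of the small RNA, the cut lay at position 10 in all 7, the place where a plant miRNA is known to direct the cut. This position is close to what the search itself asks for, and it was also found at 231 of the 242 sites of other predicted miRNAs (95.5%) and at 429 of the 514 sites of conserved miRNAs (83.5%). The alignment score, which rises with mismatches and was 4 at most in the tables, was 3.5 at 5 targets and 4 at gi393756208 and gi393756234. A score of 3.5 was given to 10.3% of the sites of other predicted miRNAs and to 12.5% of those of conserved miRNAs, and a score of 4 to 38.8% and 70.8% of them. The median was 4 over all 763 sites and 3 over the sites of other predicted miRNAs. The 7 targets were thus at or below the first median and above the second.

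Pairing of 24 nt or more made up a small share of the other sites. It was found at 33 of the 242 sites of other predicted miRNAs (13.6%, 10 miRNAs) and at 36 of the 514 sites of conserved miRNAs (7.004%), all of csn-miR172. Sites of 1 miRNA share its length, so the 7 spans are not separate observations. Counted by miRNA, 10 predicted miRNAs besides csn-smR7277 had such sites. All sites were this long for csn-smR3933 (10 sites), csn-smR7 and csn-smR9 (4 each), csn-smR1014 (2), and csn-smR28, csn-smR31 and csn-smR37 (1 each). For csn-smR15 and csn-smR49 it was 4 of 10 sites each, and for csn-smR69 2 of 5. Long pairing at every site is thus not particular to csn-smR7277. The long sites of other miRNAs had few reads, with at most 2 in the cold library and 3 in the control library for predicted miRNAs, and at most 2 in the cold library and 4 in the control library for csn-miR172. Of the 33 long sites of other predicted miRNAs, 23 had a score of 3 or lower. The 39 control reads of the leading csn-smR7277 targets were more than at any of these other long sites, but reads are what csn-smR7277 was selected on.

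**Figure D2:**
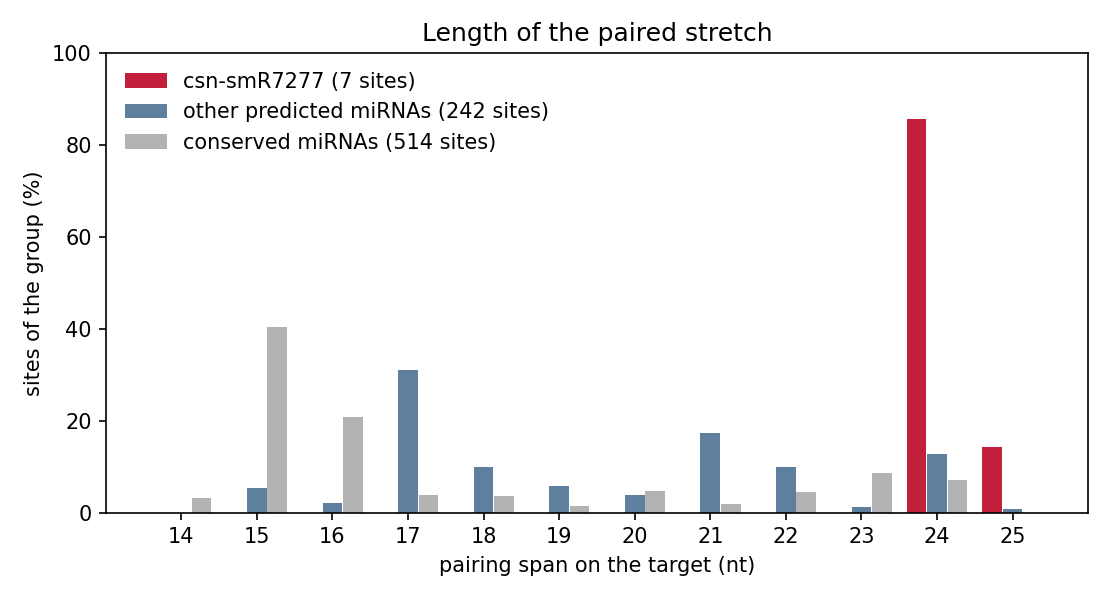
Percentage of sites (vertical axis) by the length of the paired stretch on the target in nt (horizontal axis), for the 7 csn-smR7277 sites, 242 sites of other predicted miRNAs and 514 sites of conserved miRNAs. All csn-smR7277 sites lie at 24 or 25 nt, against 13.6% of the other predicted sites and 7.004% of the conserved ones.

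The number of separate cuts behind the 7 entries depends on what counts as identical. When entries with the same score, annotation, categories and reads were collapsed, 6 remained, because gi393756208 and gi393756234 were the same in these values. Their spans differed (24 and 25 nt), which the rule does not compare. The 3 leading targets stayed apart under this rule, by annotation or cold category, although their spans, scores and reads were equal. When the annotation was not used, gi212377786 and gi393393386 also fell together and 5 remained. When only the pair of read counts was compared, 4 remained, with 5 and 39, 3 and 1, 0 and 1, and 1 and 0 reads in the cold and the control library. A read that matches several ESTs perfectly is counted on each of them, and whether the 3 leading targets hold the same reads was not tested.

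Equal read pairs on several ESTs also occurred elsewhere. The 24 sites with 20 or more reads formed 18 combinations of a miRNA and a read pair, and 4 of these combinations stood on 2 or more ESTs. The 3 csn-miR393 sites all had 53 reads in the cold library and 139 in the control library, with 1 annotation and 1 combination of categories. The csn-smR7277 combination was the only 1 of these 4 in which the ESTs differed in category. It had 2 annotations, as did the csn-miR408 pair of 3 cold and 82 control reads.

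Summed over the 6 collapsed entries, csn-smR7277 had 19 reads in the cold library and 119 in the control library, a ratio of 0.219 (0.127 to 0.357). With 1 entry for each read pair it had 9 and 41 reads, a ratio of 0.301 (0.128 to 0.628). The low ratio rested on the leading sites. Without them the 3 collapsed entries that were left had 4 reads in the cold library and 2 in the control library, a ratio of 2.74 with an interval of 0.392 to 30.3 that includes 1. If the leading targets share their reads, the sums over 7, 6 or 5 entries count the same reads more than once and their intervals are too narrow.

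Of the 7 targets, 3 had more than 3 reads in a library, and these 3 were at least 4-fold lower in the cold library. Among all 109 sites with more than 3 reads in a library, 19.3% were at least 4-fold lower and 13.8% at least 4-fold higher in the cold library, a missing value being set to 3 reads. These shares include the csn-smR7277 sites. Most of the lower sites were those of csn-miR408, which also stood among the higher ones. Since the csn-smR7277 targets were chosen for this difference, and may stand for 1 set of reads, nothing is read from their count. When the reads were divided by the sum of the listed sites in place of all signatures, the ratio of a leading site was 0.326 (0.1002 to 0.827) and 0 of the 3 remained past 4-fold. That sum includes the csn-miR408 sites, with 95 cold and 1182 control reads. With the sum of the listed sites without csn-miR408 the ratio was 0.213 (0.0654 to 0.540).

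**Figure D3:**
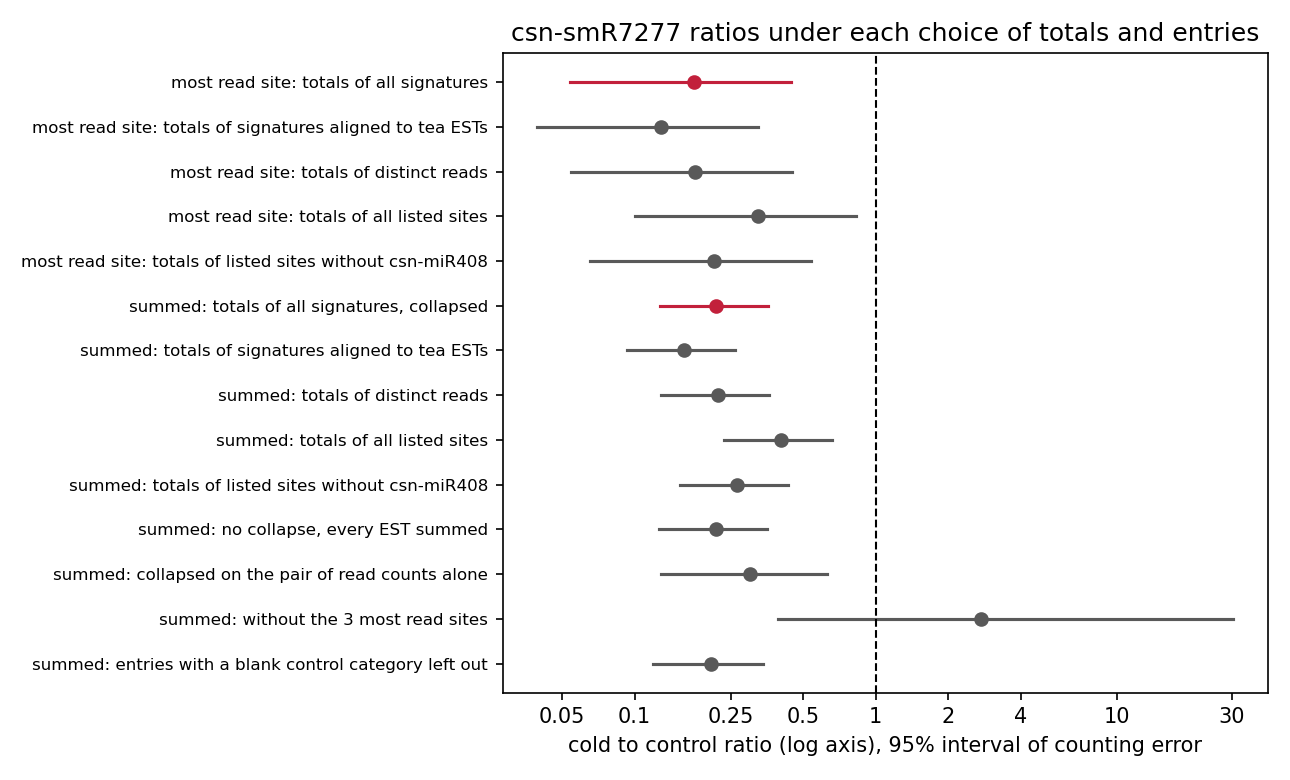
Cold to control ratio (log axis) of the most read csn-smR7277 site and of the summed reads, with exact 95% intervals of counting error, for each choice of library total and of entries. Red marks the main choice, all sequenced signatures with, for the sum, the 6 collapsed entries. Grey rows that name no other total also use all sequenced signatures. All ratios lie below 1, from 0.128 to 0.406, except the sum without the 3 most read sites, which is 2.74 with an interval that includes 1.

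Among the predicted miRNAs csn-smR7277 stood high in the control library. Its 39 control reads were the most at any site of a predicted miRNA, and the next was the csn-smR69 site on gi393750994 with 6 reads in the cold library and 15 in the control library. Of all 763 sites, 16 had more control reads than a leading csn-smR7277 site and 27 had more cold reads. Summed over its ESTs, csn-smR7277 had 120 control reads and ranked 1 of 40 predicted miRNAs there, while its 19 cold reads ranked 7. The 120 include the 39 reads of each of the 3 leading targets, and csn-smR2845 was next with 118 over its 66 sites. csn-smR7277 held 5.79% of the reads listed for predicted miRNAs in the cold library (19 of 328, exact interval 3.52 to 8.90). In the control library it held 19.5% (120 of 615, 16.5 to 22.9). With 1 entry for each read pair the shares were 4.55% (2.10 to 8.45) and 18.1% (13.3 to 23.7). The rank of csn-smR7277 in the control library was 1 under each way of collapsing, but the lead was small without collapsing. These ranks and shares use the reads on which csn-smR7277 was selected, so they only describe it. Collapsing also merged csn-smR2845 sites with equal values, which left it 31 control reads when score, annotation, categories and reads were compared. Under that rule csn-smR7277 kept 119 control reads, because its 3 leading targets stayed separate entries. The wider lead thus depends on the rule. The rank of csn-smR7277 in the cold library was 7 with 1 entry for each read pair and 4 with the 6 collapsed entries.

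The place of the leading sites among the other well-read sites is best seen in the plot of all sites. Of the non-csn-smR7277 sites with 20 or more reads in a library, the nearest in ratio were those of csn-miR408, a conserved miRNA known to target transcripts of copper proteins. gi393749899 (VQ motif-containing protein) had 5 cold and 87 control reads, a ratio of 0.0787 (0.0249 to 0.191). gi393751157 (unknown protein) had 4 and 83 reads, a ratio of 0.0660 (0.0176 to 0.175). gi206583693 (transposable element gene) had 4 and 84 reads, a ratio of 0.0652 (0.0174 to 0.173). They differed from the csn-smR7277 ratio by 1.16, 1.41 and 1.43 on the log2 scale. On the other side lay csn-miR393, which is known to target auxin receptor transcripts, with a ratio of 0.522 (0.373 to 0.721). The interval of a leading csn-smR7277 site (0.0540 to 0.446) overlapped those of the 3 csn-miR408 sites and of csn-miR393, and the differences were not tested.

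**Figure D4:**
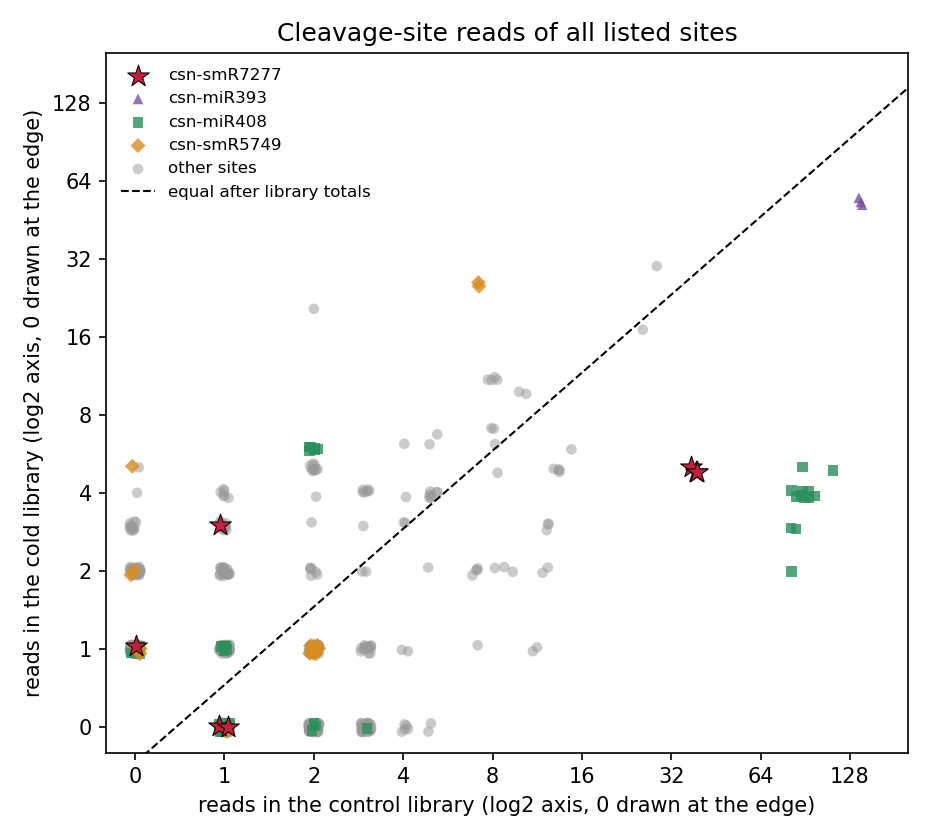
Reads in the cold library (vertical) against reads in the control library (horizontal) for all 763 listed sites, on log2 axes with 0 drawn at the edge and a small random shift to separate points. The 3 leading csn-smR7277 sites (stars at 5 cold and 39 control reads) lie below the dashed line of equal reads per library total. They stand between the best-read csn-miR408 sites and csn-miR393. The best-read csn-smR5749 sites lie above the line, as do csn-miR408 sites with 6 cold and 2 control reads.

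The reads of these other miRNAs stood on other numbers of sites. csn-miR408 had 38 sites, 21 after collapsing, with 56 and 1071 collapsed reads in the cold and the control library. csn-miR393 had 3 sites that collapsed to 1. The predicted csn-smR5749, whose reads were more in the cold library, had 18 sites and 9 after collapsing, with 63 cold and 17 control reads, a ratio of 5.07 (2.93 to 9.25). Summed over every EST it had 72 cold and 33 control reads, a ratio of 2.99 (1.95 to 4.66). Its best-read sites were paired over 15 nt, against 24 nt for the leading csn-smR7277 targets.

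No EST targeted by csn-smR7277 was listed for any other miRNA. By the words of the annotation, 11 further sites of 3 other miRNAs were small GTP-binding proteins, with 11 reads in the cold library and 19 in the control library, and 0 of them had more than 3 reads in a library. Transposable element genes were targets at 19 other sites of 10 miRNAs, with 57 cold and 124 control reads. Of the 7 of these with more than 3 reads, 1 was at least 4-fold lower and 1 at least 4-fold higher in the cold library, and their median log2 ratio was 0.04, against 0.13 over all 109 such sites. There were 10 other pseudogene sites, of which 1 had more than 3 reads and 0 were past 4-fold. Of 478 other unknown protein sites, 73 had more than 3 reads, with 9 lower and 7 higher by at least 4-fold and a median log2 ratio of 0.13.

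csn-smR7277 had no entry in the table of predicted miRNAs from the mixed small RNA library, so its sequence, length and small RNA reads were not analysed here. It was 1 of 20 such miRNAs among the 40 predicted ones with degradome targets. These 20 held 276 of the 328 cold reads and 474 of the 615 control reads listed for predicted miRNAs.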

How the data were processed

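Degradome tags of 20 to 21 nt had been mapped by the authors to *Arabidopsis* and tea transcripts and ESTs, and targets were called with CleaveLand (version not given in the sources used here) with up to 5 mismatches and annotated with BlastX. The deposited tables give raw counts of reads at each cleavage site. The deposited alignment score rises with mismatches, and the category is a score from 0 to 4. In 172 of 763 entries, 1 of them a csn-smR7277 target, the control category was blank and the cold category and reads stood 1 column to the left. They were moved back, after which category 4 went with 1 read in every one of them. In 10 entries, 0 of csn-smR7277, a pairing range stored as a date was read back.

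Reads were divided by the signatures sequenced per library, as stated in the study, since the tables hold part of each library. Intervals (95%) were exact Poisson intervals for reads, exact conditional binomial intervals for ratios and Clopper-Pearson intervals for shares (scipy 1.17.1, Python 3.11.15). They cover counting error only and no spread between libraries, since each group held 1 library. They also treat reads as independent, which PCR reads are not, so they may be too narrow. The ratio intervals were tested on simulated independent Poisson reads only. That test leaves out PCR copies and reads shared between ESTs, so it cannot show how the intervals behave with them. A count of 0 was set to 3 reads for 4-fold counts, and sites with 3 or fewer reads in both libraries were not counted. All csn-smR7277 targets were named, with the 3 other sites of 20 or more reads nearest in ratio, and csn-miR393, csn-miR408 and csn-smR5749. The targets, lists and comparisons were chosen with earlier results of these data known. Other totals, collapse rules and folds were tried.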

Additional observations from a re-analysis of the deposited data

How the results depend on the processing

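The ratio of a leading csn-smR7277 site stayed below 1 under every library total tried, from 0.128 with signatures aligned to tea ESTs to 0.326 with the sum of all listed sites. The aligned signatures are unique sequences, with a control to cold ratio of 1.00, so that total does not measure sequencing depth. The summed ratio of 0.219 was 0.406 with the sum of all listed sites, and it turned to 2.74 without the 3 most read sites, which leaves 4 cold and 2 control reads. The number of targets at least 4-fold lower in the cold library was 3, and 0 with the sum of all listed sites. The number at least 4-fold higher was 0, and 1 (gi393740969, 3 cold and 1 control reads) when targets with reads in both libraries were counted without a minimum. The csn-smR7277 share of control reads of predicted miRNAs was 19.5%, and 30.7% after collapsing on score, annotation, categories and reads, which keeps its 3 leading targets apart. The rank of csn-smR7277 among predicted miRNAs by cold reads was 7, and 4 after the same collapse. The other alternatives moved no value beyond its counting interval and no count by over 1.5 times. No paired analysis was possible because each group held 1 library. The spread between libraries is unknown, and at 3 or fewer reads a site cannot show a difference.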
